A study of Homo sapiens with 15 samples.

Results

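Human chromosome 19 carries dense arrays of ZNF genes, most of which encode zinc finger proteins. The genes described here are those of the deposited count table whose Ensembl identifier is annotated as protein-coding on chromosome 19 (GRCh38, GENCODE release 29) and whose symbol is ZNF followed by digits. This rule gave 246 genes of the 60670 in the table, of which 240 have digits only after ZNF and 6 carry a further letter (ZNF585A, ZNF585B, ZNF780A, ZNF780B, ZNF587B and ZNF324B). The rule itself does not use expression, but the set was chosen with earlier results of these data known. Of the 246, 154 had enough reads to be tested and 92 did not.

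RNA was sequenced from HT-1080, an established line of human fibrosarcoma cells, in 5 groups of 3 libraries. All cells were grown at low oxygen in medium with tetracycline-free serum. Cycling cells received the vehicle DMSO and are labelled 6 h. The other groups were senescent: they had expressed a TRF2 mutant that acts as a dominant negative over 6 days, which uncaps telomeres, before they received DMSO for 6 h, 1 uM GNF-7 for 6 h, DMSO for 24 h or 1 uM GNF-7 for 24 h. GNF-7 is a tyrosine kinase inhibitor that the study relates to activation of the kinase GCN2. Every GNF-7 library therefore also carries the TRF2 mutant, and the design holds no cycling cells with GNF-7 and no cycling cells labelled 24 h. The labels call the libraries of a group biological replicates without naming separate cultures, so p-values measure the spread between these libraries. In bulk libraries, fewer cells that express a gene and less RNA per cell cannot be told apart.

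Zinc finger proteins of this family bind DNA through tandem finger repeats, each of which contacts a few bases. Many on chromosome 19 also carry a KRAB domain, which recruits the corepressor TRIM28 (KAP1). TRIM28 in turn brings in the histone methyltransferase SETDB1, heterochromatin proteins of the CBX family, the NuRD deacetylase complex and DNA methyltransferases. A main known role of KRAB zinc finger proteins is to silence retrotransposons, and the genes arose by repeated tandem duplication, so neighbours are often near copies of each other. Protein sequences were not used here, so genes were not sorted by the presence of a KRAB domain.

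Library totals ranged from 25991007 to 32323393 counts, of which 44003 to 63048 fell on the chromosome 19 ZNF genes. TERF2, which encodes TRF2, was at 58.2 ± 3.65 CPM (counts scaled by TMM library size, mean ± SD, n = 3) in cycling libraries, and in vehicle-treated senescent libraries at 6 h it was at 287 ± 8.17 CPM; reads of the mutant and of the endogenous gene were not separated. The 8 listed fibroblast-like markers were at 240 (CDH2) to 4460 CPM (VIM) in cycling cells. In senescent cells 3 of them were called higher and 5 lower, against 35.6% and 34.4% over all genes tested. With GNF-7 at 24 h all 8 were called lower, against 29.7% over all genes tested. At least 2-fold falls were called for 4 of them, against 3.92% over all genes. Their log2 fold changes were -2.38 for SPARC, -1.94 for CAV1, -1.16 for CDH2 and -1.13 for FN1. Of 12 epithelial, blood and endothelial markers only CLDN4, CD14 and PECAM1 passed the filter on low counts, and the highest group mean among the 12 was 1.75 CPM, for CLDN4 with GNF-7 for 24 h. The mitochondrial share of counts rose with the groups, from 3.75 to 5.01% in cycling cells and 11.2 to 12.4% in senescent vehicle cells at 6 h to 22.6 to 24.1% with GNF-7 for 24 h. Genes with at least 1 count also differed in number, with 22093 to 22395 in cycling cells, 25027 to 25292 in senescent vehicle cells at 6 h and 26476 to 26774 with GNF-7 for 24 h.

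The chromosome 19 ZNF genes were expressed at low levels. Over the 154 tested, the median of the mean over all libraries was 7.67 CPM, or 1.51 CPM per kb of exon, against 2.77 CPM per kb for the 220 tested ZNF genes of other chromosomes and 7.06 CPM per kb for the 780 other tested coding genes of chromosome 19. ZNF580 was the most abundant per length at 26.7 CPM per kb, followed by ZNF146 (24.3), ZNF358 (15), ZNF428 (14.5) and ZNF787 (12.8). ZNF146 encodes a protein made almost only of fingers, without a KRAB domain. By CPM alone, ZNF146 was highest in each group, at 138 ± 2.82 in cycling cells and 92.4 ± 1.904 in senescent vehicle cells at 6 h. Next by mean CPM over all libraries came ZNF580 (71.8), ZNF274 (59.1), ZNF787 (46.9) and ZNF121 (46.7). Summed over all 246 genes, the level was 1762 ± 14.9 CPM in cycling cells, 1951 ± 26.2 in senescent vehicle cells at 6 h, 2008 ± 39.8 with GNF-7 for 6 h, 1947 ± 17.3 in vehicle at 24 h and 2047 ± 26.6 with GNF-7 for 24 h (SD, n = 3). Between 155 and 158 of the genes had at least 1 count in cycling libraries, 172 to 175 in senescent vehicle libraries at 6 h and 184 to 191 with GNF-7 for 24 h. In the groups just named these numbers rose with the number of all genes detected given above, and with the mitochondrial share. With GNF-7 for 6 h, 174 to 178 had a count, where 26034 to 26273 genes of any kind were detected. Vehicle at 24 h had more of them, 176 to 180, but fewer genes of any kind, 24916 to 25189. The part of genes detected and of the mitochondrial share in the difference was not tested.

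The genes lie in groups along the chromosome, and the share of genes with enough reads to be tested differed between the groups. Genes were split into clusters wherever neighbouring starts lay more than 1 Mb apart, which gave 16 clusters, 9 of them with at least 5 genes. Of the 92 genes not tested, 67 had at most 3 counts in every library, the 22 with no count in any library among them, and the most abundant untested gene, ZNF675, had a mean of 0.233 CPM. In cluster 5, toward the centromere on the short arm (19.67 to 24.13 Mb), 27 of 37 genes were not tested. In cluster 3 (11.48 to 12.64 Mb) the number was 16 of 25 and in cluster 15 (51.57 to 53.58 Mb) 19 of 39. By contrast, 1 of 24 genes was not tested in cluster 12 (43.53 to 45.08 Mb) and 11 of 59 in cluster 16 (55.48 to 58.48 Mb), next to the end of the long arm. Untested genes also ran in unbroken rows: 12 from ZNF43 to ZNF724 with at most 6 counts in any library, 11 from ZNF600 to ZNF677 with at most 4, 10 from ZNF506 to ZNF85 with at most 10 and 9 from ZNF439 to ZNF625 with at most 7. ZNF93, known as a repressor of LINE-1 elements, lies in the row from ZNF506 to ZNF85. A count of 0 allows up to 3 counts in a library at the 95% level, and this limit covers counting error only. How reads that match several near copies were treated is not given. Low counts in rows of alike genes therefore need not mean that the genes were not expressed.

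Promoter windows were taken from RefSeq (GRCh38.p14, 250 bases before to 50 after the RefSeq start of each gene). That start can differ from the start of the counted gene, as for ZNF587B and ZNF420. Windows were matched for 215 of the 246 genes and searched on both strands for 6 short motifs. A motif made of ACTACA, any 2 bases and TCC, which is part of the site bound by the factor ZNF143, stood in 32 of the 215 windows (14.9%), against 2.09% of all 27305 windows. CCGGAAGT, an ETS factor site, stood in 45 windows (20.9%), against 4.44% of all. The CCAAT box stood in 53.5% against 35.7%. The stress response element TGATGNAA, read by the ATF4 and C/EBP families, stood in 4 windows (1.86%) against 3.67% of all, the cAMP response element TGACGTCA in 7 (3.26%) against 1.98%, and the E2F-type site TTCCCGCC in 10 (4.65%) against 3.18%. Matches of different motifs could overlap in position and were counted separately. Matches are a description of the letters and not of binding, and neighbours that arose by duplication share sequence, so the windows are not independent.

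The sites below are shown because they are nearly alike in genes whose expression rose, fell or did not pass the test. Each is printed 5′ to 3′ on the strand that carries the motif, whose 11 letters are in capitals, with 8 bases on either side. They lie at chr19:2819824-2819850 (ZNF554), chr19:36214966-36214992 (ZNF146), chr19:44094257-44094283 (ZNF224), chr19:44113314-44113340 (ZNF225), chr19:44305092-44305118 (ZNF235), chr19:44500554-44500580 (ZNF180), chr19:53520880-53520906 (ZNF331) and chr19:58002836-58002862 (ZNF606).
ZNF554: acctgcgaACTACAAGTCCcagcaggc
ZNF146: ggccttggACTACATTTCCcttgaggc
ZNF224: gcgtctggACTACACTTCCcagaattc
ZNF225: gcgtctggACTACACTTCCcagaattc
ZNF235: actcctggACTACAGTTCCcagaatgc
ZNF180: gagccagaACTACAATTCCcagaagcc
ZNF331: ggttatggACTACATTTCCcagaggcc
ZNF606: cgcctggaACTACAGCTCCcagcagac

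The windows of ZNF224 and ZNF225, neighbours of cluster 12, are the same in all 27 bases. In senescent cells, set against cycling cells, the log2 fold change was 1.52 for ZNF554, 1.22 for ZNF235, 1.09 for ZNF606, 0.70 for ZNF224, 0.20 for ZNF225, 0.66 for ZNF331, -0.58 for ZNF146 and -1.04 for ZNF180, of which that of ZNF225 did not pass the test (edgeR adjusted p 0.146). Among tested genes with a matched window, 13 of the 27 with the motif were called higher and 7 lower in senescent cells, against 64 and 16 of the 112 without it. For CCGGAAGT the counts were 21 higher and 7 lower of 39 with the motif, and 56 and 16 of 100 without it. For CCAAT they were 32 higher and 13 lower of 67 with the motif, and 45 and 10 of 72 without it. The other motifs stood in few tested windows: 2 for TGATGNAA, 7 for TGACGTCA and 7 for TTCCCGCC. Over all genes tested, 35.6% were higher and 34.4% lower. A difference between the shares with and without a motif was not tested.

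Senescent cells were compared with cycling cells, both in vehicle at 6 h, to describe the senescent state. Of the 154 tested chromosome 19 ZNF genes, 83 were called higher and 25 lower in senescent cells (edgeR quasi-likelihood test, adjusted p under 0.05 over all 18563 genes tested). Over all genes tested, 35.6% were called higher and 34.4% lower, so the share of higher calls among the chromosome 19 ZNF genes, 53.9%, was above the background and the share of lower calls, 16.2%, below it. Their median log2 fold change was 0.36, against 0.06 over all genes tested. For ZNF genes of other chromosomes, 87 of 220 were higher and 59 lower, with a median of 0.075, and for the other coding genes of chromosome 19, 323 of 780 were higher and 278 lower, with a median of 0.072. Among large changes, 25 of the 154 rose at least 2-fold, which is below the share of 18.5% over all genes. At least 2-fold falls were called for 5, also below the share over all genes, 7.56%. The higher share of rises was thus not seen at this size. A gene that passed the filter only through the group where it is high had to differ, and the counts cover tested genes only. With mitochondrial genes left out of the scaling, 86 genes were higher and 25 lower.

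**Figure D1:**
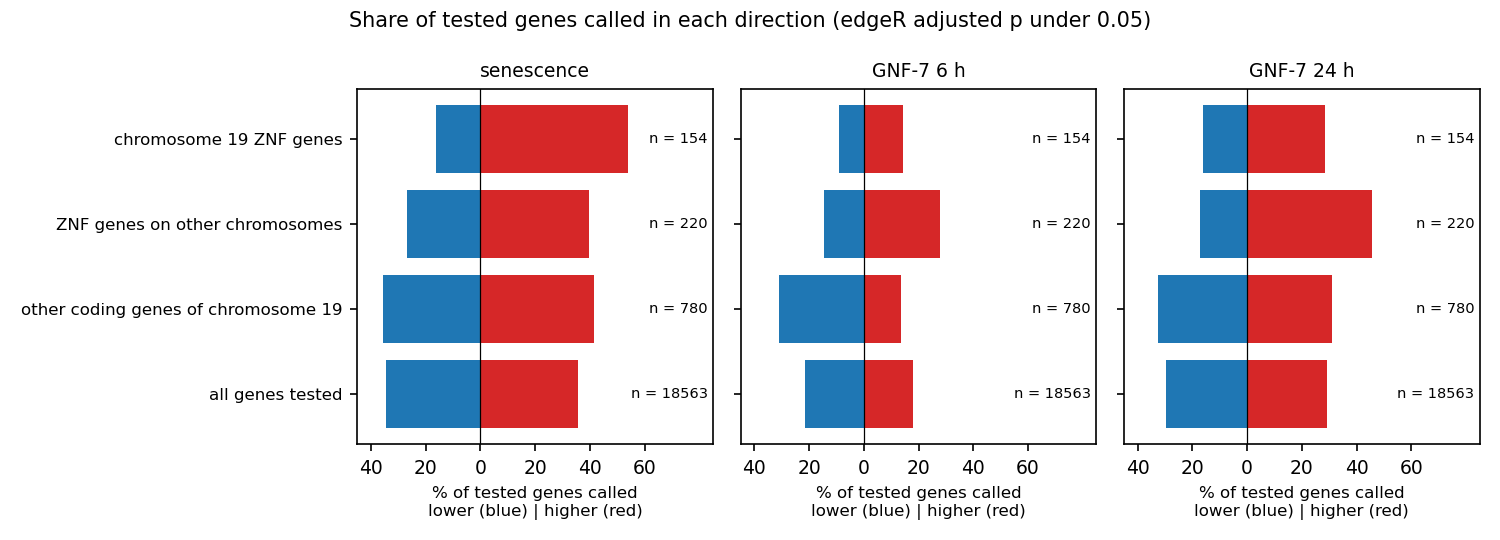
Bars give the percent of tested genes called higher (red, to the right) and lower (blue, to the left) by edgeR at an adjusted p under 0.05, for chromosome 19 ZNF genes, ZNF genes of other chromosomes, other coding genes of chromosome 19 and all genes tested, with the number tested beside each bar. In the senescence panel the chromosome 19 ZNF genes reach 53.9% higher and 16.2% lower, against 35.6% and 34.4% over all genes, whereas at 24 h of GNF-7 they stand at 44 of 154 higher and the ZNF genes of other chromosomes at 100 of 220.

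The largest rise among genes with a mean of at least 1 CPM was that of ZNF432 (ENSG00000256087, chr19:52031379-52095738, minus strand). It was at 6.03, 6.99 and 8.096 CPM in the 3 cycling libraries and at 42.9, 43.8 and 45.1 CPM in the 3 senescent vehicle libraries at 6 h, a log2 difference of 2.63 (SE 0.082, edgeR adjusted p 2.13e-33). All senescent libraries stood above all cycling libraries. ZNF841, which overlaps ZNF432 on the same strand, was at 11.3, 11.2 and 9.89 CPM and then at 35.1, 37.3 and 38.5 CPM, a log2 difference of 1.78 (SE 0.071, edgeR adjusted p 8.45e-32). The groups did not overlap for this gene either. The counts do not show how reads of exons that both genes share were assigned, so the values of ZNF432 and ZNF841 are uncertain where they overlap. ZNF614, the neighbour of ZNF432 on the same strand, went the other way, from 12.99, 13.2 and 14.1 CPM to 9.27, 10.1 and 7.87 CPM, a log2 difference of -0.56 (SE 0.12, edgeR adjusted p 2.99e-05).

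Cluster 15 as a whole, which holds these genes, had 16 of 20 tested genes called higher and 2 lower (ZNF614 and ZNF649), with a median log2 fold change of 0.81. Its other risers included ZNF528, at 1.01, 0.861 and 0.327 CPM in cycling and 2.29, 2.81 and 2.46 CPM in senescent libraries, a log2 difference of 1.81 (SE 0.25, edgeR adjusted p 4.11e-09). This gene was low in every cycling library. In the same cluster ZNF761 rose by 1.46 on the log2 scale, ZNF350 by 0.95, ZNF175 by 0.54 and the imprinted gene ZNF331 by 0.66. The call of ZNF331 was lost without cycling replicate 1 (edgeR adjusted p 0.0591). Cluster 5 had 3 of 10 tested genes higher and 3 lower. Cluster 16 had 23 of 48 higher and 11 lower, cluster 12 had 11 of 23 higher and 2 lower, cluster 9 had 8 of 18 higher and 3 lower, cluster 2 had 7 of 11 higher and 1 lower, cluster 3 had 5 of 9 higher and 0 lower, and all 4 tested genes of cluster 8 were higher. Over all genes tested, 35.6% were higher and 34.4% lower. No test of a difference between clusters was made.

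**Figure D2:**
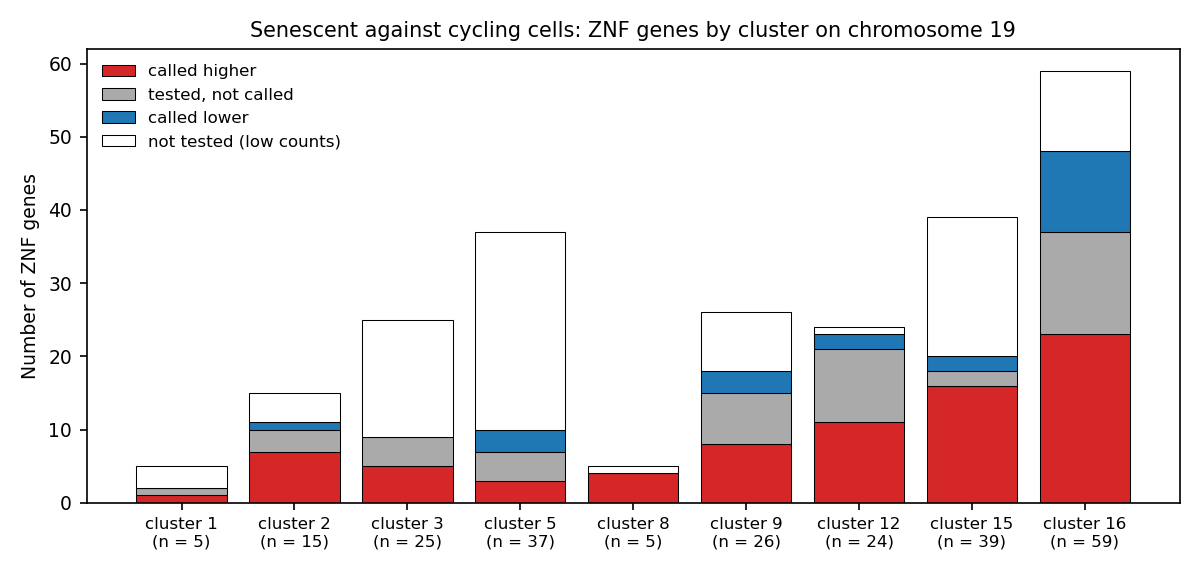
Stacked bars count the ZNF genes of each cluster with at least 5 genes by their call in senescent against cycling cells, with clusters in order along the chromosome. Cluster 15 has 16 genes called higher of 20 tested, and the white parts show 27 untested genes of 37 in cluster 5, 16 of 25 in cluster 3 and 19 of 39 in cluster 15.

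ZNF814 and ZNF585A, which lie outside cluster 15, were low in cycling cells. ZNF814 (ENSG00000204514, chr19:57848731-57889074, minus strand) was at 0.322, 0.379 and 0.229 CPM in cycling and 1.39, 1.74 and 1.91 CPM in senescent libraries, a log2 difference of 2.43 (SE 0.35, edgeR adjusted p 7.12e-09). Its exons overlap those of ZNF587 on the other strand and of AC010326.2 on the same one. ZNF585A, a gene of cluster 9 with a near copy, ZNF585B, was at 0.362, 0.344 and 0.131 CPM and then 1.16, 1.58 and 1.46 CPM, a log2 difference of 2.34 (SE 0.38, edgeR adjusted p 1.45e-07). For both genes every senescent library was above every cycling library. Reads that match both ZNF585A and its copy ZNF585B could have been split or dropped, which the sources used here do not state, and ZNF585B was called higher too (edgeR adjusted p 0.00632).

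A few of the tested genes had no count in any cycling library and passed the filter through the senescent libraries. Many untested genes had no count in cycling cells either. ZNF559 had 0 counts in the 3 cycling libraries and 12 to 13 counts in each senescent vehicle library at 6 h, at least 11.5-fold higher when 3 counts over the cycling libraries are taken as the floor. ZNF709 went from 0 to between 4 and 16 counts, at least 10.9-fold higher. ZNF382, a gene known for silencing by promoter methylation in tumours, went from 0 to between 2 and 7 counts, at least 4.04-fold higher. These 3 genes were thus near or below the limit of detection in cycling cells and low in senescent cells. The least folds given for them take the senescent counts as exact, without their counting error. ZNF296 had 1 count in the cycling libraries together and 9 to 14 counts in each senescent library, a ratio of 29.8 with a counting interval from 4.98 to 1210.

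Among the 25 genes that were lower in senescent cells, ZNF530 (cluster 16) was at 11.4, 11.4 and 10.3 CPM in cycling and 4.801, 5.24 and 3.85 CPM in senescent libraries, a log2 difference of -1.25 (SE 0.14, edgeR adjusted p 3.83e-12). ZNF551, also of cluster 16, fell from 21.2, 20.2 and 20.7 CPM to 9.47, 10.04 and 8.46 CPM, a log2 difference of -1.15 (SE 0.10, edgeR adjusted p 9.23e-16). ZNF714 of cluster 5 fell from 20.6, 21.2 and 19.2 CPM to 8.24, 9.47 and 10.7 CPM, a log2 difference of -1.10 (SE 0.10, edgeR adjusted p 7.45e-15). In each of these 3 genes all senescent libraries lay below all cycling libraries. ZNF180 of cluster 12 fell by 1.04 and ZNF587B of cluster 16 by 0.80 on the log2 scale. ZNF100 fell by 1.64 from a low level, 1.68 ± 0.506 CPM in cycling cells.

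**Figure D3:**
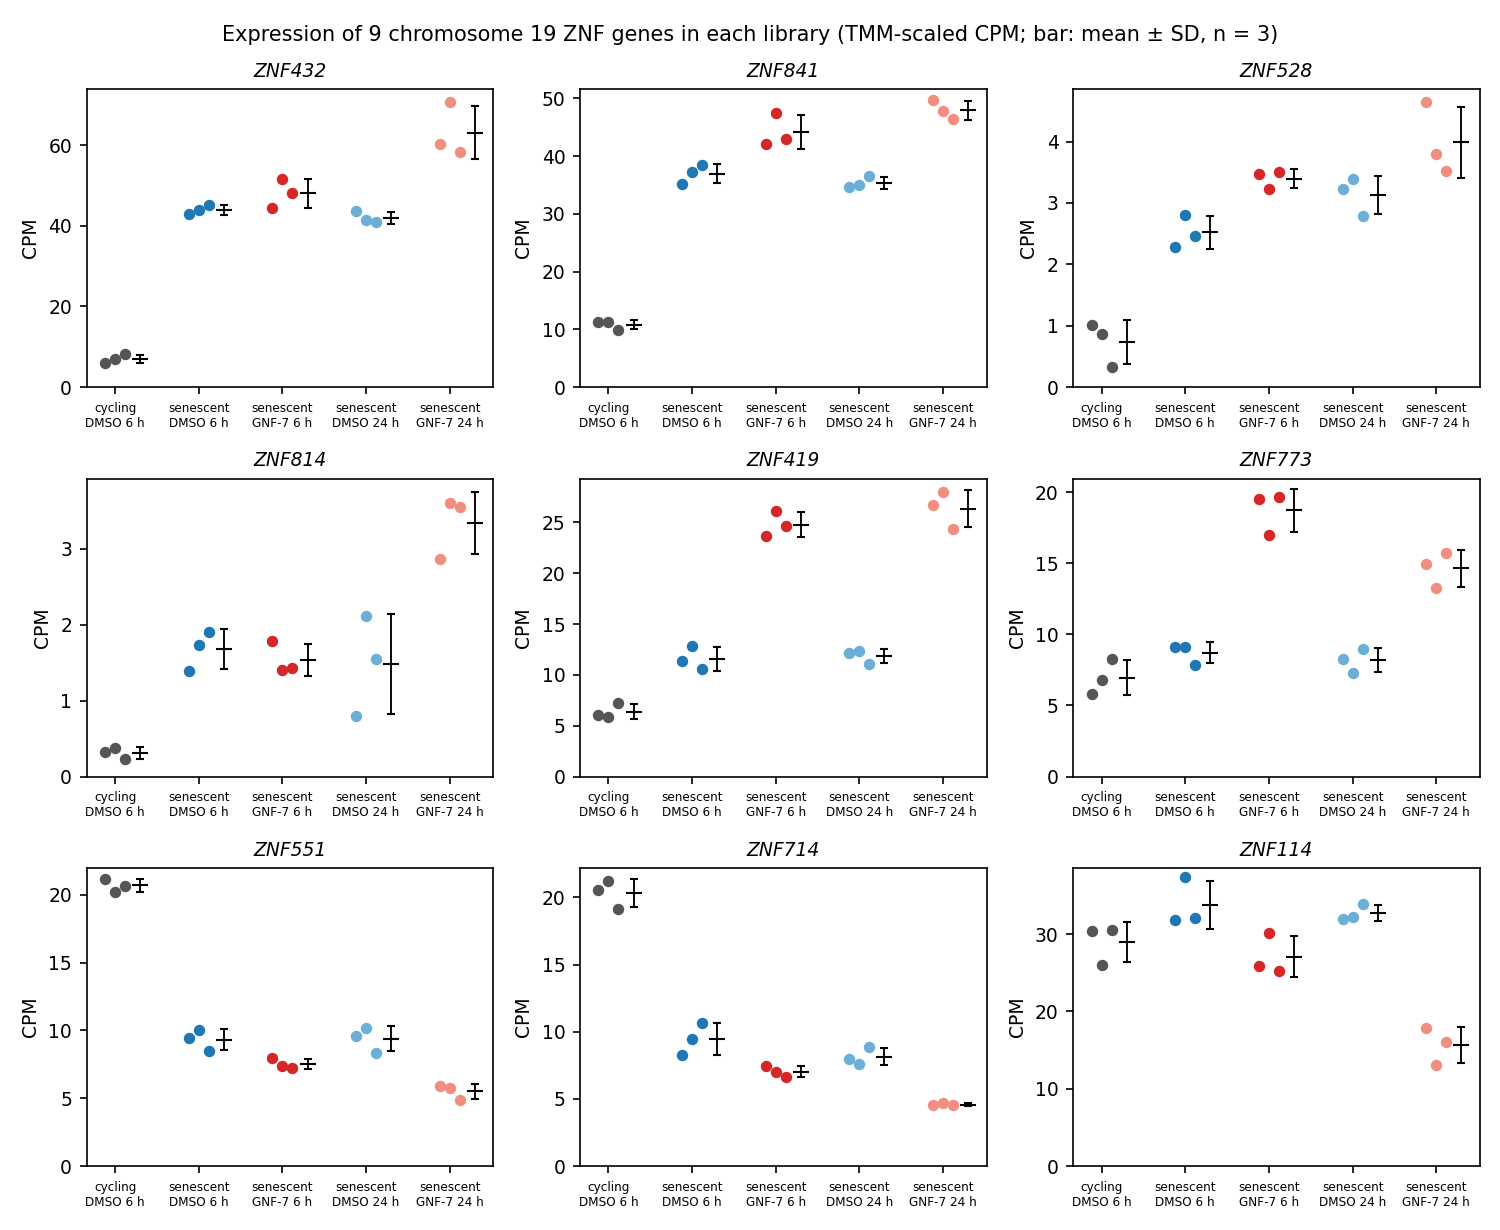
Each panel gives 1 chromosome 19 ZNF gene, with CPM on the vertical axis from 0, 1 point per library and the mean with SD (n = 3) beside the points of each group. ZNF432, ZNF841, ZNF528 and ZNF814 are low in all cycling libraries, ZNF419 and ZNF773 stand higher in the GNF-7 libraries of both times than in vehicle, and ZNF551 and ZNF714 are highest in cycling cells and lowest with GNF-7 for 24 h.

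Neighbouring genes with nearly the same promoter window moved together in some pairs and not in others. The windows of ZNF587B and ZNF814 (cluster 16, chr19:57830049-57830348, plus strand, and chr19:57888988-57889287, minus strand) were identical in 89.8% of aligned positions, and those of ZNF714 and ZNF431 (cluster 5, chr19:21081953-21082252 and chr19:21141790-21142089, both plus strand) in 91.0%. The pairs were chosen after these values were seen. They were the highest among 103 pairs of neighbours that were both tested, where the median over all 200 neighbour pairs with windows was 53.4%. Both windows of the first pair hold CCGGAAGT and CCAAT, and both of the second hold CCAAT. The ZNF587B window lies inside the counted gene, which starts at position 57819741, so it need not be the promoter of the counted reads. The pairs are printed 5′ to 3′ in gene orientation, with capitals for bases that differ from the partner or face a gap, 26 in each window of the first pair and 27 in each of the second.
ZNF587B: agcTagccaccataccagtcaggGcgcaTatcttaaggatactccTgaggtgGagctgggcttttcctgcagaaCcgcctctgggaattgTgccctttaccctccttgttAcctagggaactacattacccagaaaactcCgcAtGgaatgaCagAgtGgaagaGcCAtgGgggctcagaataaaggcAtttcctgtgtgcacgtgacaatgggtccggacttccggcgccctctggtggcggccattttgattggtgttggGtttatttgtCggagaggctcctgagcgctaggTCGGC
ZNF814: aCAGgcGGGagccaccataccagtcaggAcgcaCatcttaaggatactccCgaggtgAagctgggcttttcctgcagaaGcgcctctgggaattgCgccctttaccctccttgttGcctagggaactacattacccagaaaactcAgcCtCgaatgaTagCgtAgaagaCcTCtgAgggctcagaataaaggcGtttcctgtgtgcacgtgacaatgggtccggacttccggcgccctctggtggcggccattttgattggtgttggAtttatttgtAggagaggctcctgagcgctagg
ZNF714: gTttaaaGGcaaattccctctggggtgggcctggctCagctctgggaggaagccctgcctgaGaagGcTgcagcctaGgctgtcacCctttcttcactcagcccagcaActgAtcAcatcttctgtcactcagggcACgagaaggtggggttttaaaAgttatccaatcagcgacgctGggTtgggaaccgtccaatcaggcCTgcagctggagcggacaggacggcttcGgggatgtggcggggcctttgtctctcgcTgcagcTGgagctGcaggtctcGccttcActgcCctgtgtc
ZNF431: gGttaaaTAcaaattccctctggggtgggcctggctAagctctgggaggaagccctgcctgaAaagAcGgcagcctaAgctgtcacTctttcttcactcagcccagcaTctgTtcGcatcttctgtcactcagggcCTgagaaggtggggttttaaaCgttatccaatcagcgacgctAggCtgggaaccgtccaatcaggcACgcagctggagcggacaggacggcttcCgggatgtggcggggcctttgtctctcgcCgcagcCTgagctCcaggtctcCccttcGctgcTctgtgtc

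ZNF587B was at 17.8, 18.8 and 19.3 CPM in cycling libraries and 11.2, 10.2 and 10.8 CPM in senescent vehicle libraries at 6 h, a log2 difference of -0.80 (SE 0.098, edgeR adjusted p 1.07e-10). In the same libraries ZNF814, its neighbour with the like promoter window, rose by 2.43. Their responses to 24 h of GNF-7 also had opposite signs, with log2 fold changes of -0.58 (SE 0.11, edgeR adjusted p 2.56e-06) for ZNF587B and 1.18 (SE 0.25, edgeR adjusted p 5.17e-05) for ZNF814. ZNF714 fell in senescent cells as given above, whereas ZNF431 was at 14.04, 13.9 and 14.8 CPM and then 15.3, 15.6 and 17.3 CPM, a log2 difference of 0.17 (SE 0.093, edgeR adjusted p 0.0975) that did not pass the test. With 24 h of GNF-7 both were lower, by 0.83 for ZNF714 and 0.59 for ZNF431 on the log2 scale. The next pairs by identity, ranks 3 to 10 of the tested neighbours, mostly shared a call in senescent cells. ZNF430 and ZNF714 (82.0% identical) were both lower. Both genes were higher for ZNF765 and ZNF761, ZNF83 and ZNF611, ZNF780B and ZNF780A, and ZNF302 and ZNF181. The same held for ZNF841 and ZNF616 and for ZNF585A and ZNF585B (73.4%). ZNF324B was lower, and ZNF324 was not called. Over all genes tested, 35.6% were higher and 34.4% lower. The differences between the 2 genes of a pair were not tested. Reads shared between near copies, and between ZNF587B and the overlapping gene ZNF586, are an uncertainty for these pairs.

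Members with a known function were listed separately, and 13 of these 15 were tested. In senescent cells 8 of them were higher and 3 lower (61.5% and 23.1%, against 35.6% and 34.4% over all genes tested). Over the 154 tested chromosome 19 ZNF genes the shares were 53.9% and 16.2%. The list was made with earlier results of these data known. ZNF382, 1 of the 8, had no count in cycling cells and passed the filter through senescent libraries. Among repressors of retrotransposons, ZNF91, which silences SVA elements, was at 1.05, 1.07 and 1.14 CPM in cycling and 1.79, 1.83 and 2.36 CPM in senescent libraries, a log2 difference of 0.87 (SE 0.27, edgeR adjusted p 0.00335). ZNF587, which with its paralogue ZNF417 binds HERV-K elements, was at 26.2 ± 1.697 CPM and then 35.6 ± 1.59 CPM, a log2 difference of 0.45 (SE 0.070, edgeR adjusted p 1.07e-07). ZNF417 itself showed a log2 difference of 0.16 (SE 0.14, edgeR adjusted p 0.304) and did not pass the test. ZNF649, a binder of LINE-1 sequence, was at 2.94, 2.995 and 4.701 CPM and then 2.22, 1.86 and 2.19 CPM, a log2 difference of -0.77 (SE 0.22, edgeR adjusted p 0.00145), which was -0.51 with an edgeR adjusted p of 0.0588 when cycling replicate 3, its highest library, was left out. ZNF93, the LINE-1 repressor, was not tested, with at most 2 counts in any library.

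ZNF274 marks the zinc finger genes themselves: it binds the 3′ ends of many of them and recruits TRIM28 and SETDB1 there. It was at 39.8, 42.4 and 37.7 CPM in cycling and 60.5, 62.8 and 61.05 CPM in senescent libraries, a log2 difference of 0.62 (SE 0.055, edgeR adjusted p 9.88e-16). All senescent libraries were higher. ZNF350 (ZBRK1), a BRCA1 partner that represses GADD45A, was at 5.19, 4.79 and 4.37 CPM and 9.44, 9.599 and 8.67 CPM, a log2 difference of 0.95 (SE 0.12, edgeR adjusted p 7.65e-11). ZNF224, a repressor of the aldolase A gene, rose from 17.4 ± 1.54 CPM to 28.3 ± 0.423 CPM, and each senescent library was above each cycling one. ZNF473, which takes part in the processing of histone pre-mRNA, fell from 21.1 ± 1.57 to 14.7 ± 0.207 CPM, a log2 difference of -0.52 (SE 0.090, edgeR adjusted p 9.32e-07). ZNF146 fell by 0.58 on the log2 scale. ZNF420 (Apak), an inhibitor of p53, showed a log2 difference of 0.22 (SE 0.13, edgeR adjusted p 0.127) and did not pass the test. ZNF154, often methylated in tumours, had no count in any library and was not tested.

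GNF-7 was compared with vehicle in senescent cells at 6 h, the early response to the compound. Among the chromosome 19 ZNF genes, 22 were called higher and 14 lower of 154, with a median log2 fold change of 0.024 against 0.007 over all genes tested. The background was 17.9% higher and 21.4% lower, against 14.3% and 9.09% of these genes. Of the ZNF genes of other chromosomes, 61 of 220 were higher and 32 lower. At least 2-fold rises were called for ZNF419, ZNF773 and ZNF554, 3 of the 154, which is below the share of 4.16% over all genes tested. Without 6 h vehicle replicate 2, 9 chromosome 19 ZNF genes were called lower. Of the 13 tested genes with a known function, ZNF350 and ZNF224 were called higher and ZNF175 lower, and the call of ZNF350 was lost without 6 h vehicle replicate 1, 6 h vehicle replicate 2, 6 h vehicle replicate 3, 6 h GNF-7 replicate 1 or 6 h GNF-7 replicate 3 (edgeR adjusted p 0.0519 to 0.152).

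ZNF419 and ZNF773, adjacent genes of cluster 16, had the largest rises. ZNF419 (ENSG00000105136, chr19:57487711-57496097, plus strand) was at 11.4, 12.9 and 10.5 CPM in vehicle and 23.7, 26.1 and 24.6 CPM with GNF-7 at 6 h, a log2 difference of 1.09 (SE 0.087, edgeR adjusted p 1.40e-16). ZNF773 (ENSG00000152439, chr19:57499915-57518404, plus strand) went from 9.14, 9.12 and 7.87 CPM to 19.5, 16.97 and 19.7 CPM, a log2 difference of 1.10 (SE 0.11, edgeR adjusted p 1.51e-13). In both genes every GNF-7 library was above every vehicle library. The annotated locus AC003005.1 overlaps exons of both on the same strand, so reads of a shared source were not separated. Their flanking neighbours had smaller values, with log2 fold changes of -0.04 for ZNF772 and 0.16 for ZNF549, neither of which passed the test (edgeR adjusted p 0.835 and 0.274). The promoter windows of ZNF419 and ZNF773 were identical in 61.6% of aligned positions. ZNF772 and ZNF549 were named after their values were seen.

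ZNF554 of cluster 1 rose from 2.02, 2.08 and 2.91 CPM to 5.06, 4.04 and 4.9 CPM at 6 h of GNF-7, a log2 difference of 1.00 (SE 0.20, edgeR adjusted p 3.66e-05). The same gene had already risen in senescent against cycling cells, a comparison that shares the vehicle libraries with this one. ZNF575 rose by 0.79 and ZNF222 by 0.73 on the log2 scale, both genes of cluster 12, and for ZNF575 the groups overlapped. Among the falls, ZNF175, known as a repressor of the HIV-1 promoter, was at 19.8, 20.4 and 20.9 CPM in vehicle and 15.1, 14.8 and 13.97 CPM with GNF-7, a log2 difference of -0.48 (SE 0.084, edgeR adjusted p 3.39e-06). The cycling libraries were at 14.4, 13.2 and 14.5 CPM for this gene, and no test of GNF-7 against cycling cells was made. ZNF708 fell by 0.68, ZNF614 by 0.52, ZNF431 by 0.47 and ZNF850 by 0.46 on the log2 scale. The call of ZNF708 was lost without 6 h vehicle replicate 2, 6 h GNF-7 replicate 1 or 6 h GNF-7 replicate 2 (edgeR adjusted p 0.0516 to 0.131).

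At 24 h, GNF-7 was again compared with vehicle in senescent cells. Here 44 chromosome 19 ZNF genes were called higher and 25 lower of 154, with a median log2 fold change of 0.10 against 0.04 over all genes tested. Over all genes, 29.3% were higher and 29.7% lower, so the higher share, 28.6%, was near the background and the lower share, 16.2%, below it. ZNF genes of other chromosomes had 100 of 220 higher and 38 lower, with a median of 0.19. At least 2-fold rises were found for 7 of the 154 chromosome 19 ZNF genes, below the share of 10.3% over all genes tested. At least 2-fold falls were found for ZNF100 and ZNF114, also below the share over all genes, 3.92%. All 8 fibroblast-like markers were lower in the same comparison, and their part in these counts was not tested. The mitochondrial share was 15.1 to 18.7% in vehicle and 22.6 to 24.1% with GNF-7 at this time, and with mitochondrial genes left out of the scaling 44 genes were higher and 28 lower.

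ZNF846 of cluster 2 had the largest rise among genes with a mean of at least 1 CPM, from 1.05, 0.529 and 0.658 CPM in vehicle to 1.77, 2.01 and 2.42 CPM with GNF-7 at 24 h, a log2 difference of 1.45 (SE 0.31, edgeR adjusted p 4.17e-05). ZNF814 rose from 0.797, 2.12 and 1.55 CPM to 2.87, 3.605 and 3.55 CPM, and its vehicle libraries varied more than 2-fold among themselves. Even so the groups did not overlap for either gene. ZNF419 went from 12.2, 12.4 and 11.03 CPM to 26.8, 27.96 and 24.3 CPM, a log2 difference of 1.15 (SE 0.087, edgeR adjusted p 4.30e-18). ZNF773 rose by 0.84, ZNF761 by 0.92 and ZNF599 by 0.90 on the log2 scale. ZNF432, the largest riser in senescence, was at 43.6, 41.4 and 40.9 CPM in vehicle and 60.3, 70.7 and 58.4 CPM with GNF-7, a log2 difference of 0.59 (SE 0.064, edgeR adjusted p 1.52e-11).

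The fall of largest size at 24 h among genes above 1 CPM was that of ZNF114 (chromosome 19, cluster 13), from 32, 32.2 and 33.9 CPM to 17.8, 13.1 and 16 CPM, a log2 difference of -1.06 (SE 0.086, edgeR adjusted p 4.15e-14). No GNF-7 library reached the level of a vehicle library. ZNF714 fell from 7.97, 7.62 and 8.86 CPM to 4.54, 4.68 and 4.52 CPM, a log2 difference of -0.83 (SE 0.12, edgeR adjusted p 1.82e-08). ZNF551 fell from 9.602, 10.2 and 8.36 CPM to 5.91, 5.75 and 4.85 CPM, a log2 difference of -0.77 (SE 0.11, edgeR adjusted p 3.06e-08). Both had also fallen in senescent cells. ZNF649 fell by 0.79 and ZNF324B by 0.73 on the log2 scale. Of the 13 tested genes with a known function, 2 were higher (ZNF224 and ZNF350) and 3 lower (ZNF649, ZNF175 and ZNF146), against 29.3% and 29.7% over all genes tested. The call of ZNF350 was lost without 24 h vehicle replicate 1, 24 h vehicle replicate 2, 24 h GNF-7 replicate 1 or 24 h GNF-7 replicate 3 (edgeR adjusted p 0.0521 to 0.116), and that of ZNF146 without 24 h vehicle replicate 1 (edgeR adjusted p 0.0537). ZNF274 stood at 66.4 ± 0.819 CPM in vehicle and 67.5 ± 1.27 CPM with GNF-7, a log2 difference of 0.02 (SE 0.052, edgeR adjusted p 0.709) that did not pass the test.

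Cluster 8 (34.68 to 34.96 Mb) is small, and its 4 tested genes were all called higher both in senescent cells and with GNF-7 at 24 h. Over all 18563 genes tested, 35.6% were higher in senescent cells and 29.3% with GNF-7 at 24 h. Both held for 2912 genes, 44.0% of those higher in senescent cells. At 24 h, ZNF181 was at 12.3, 11.1 and 11.6 CPM in vehicle and 16.6, 16.8 and 17.6 CPM with GNF-7, a log2 difference of 0.54 (SE 0.10, edgeR adjusted p 4.51e-06). ZNF599 was at 4.43, 4.62 and 4.76 CPM and 8.95, 8.28 and 8.57 CPM, a log2 difference of 0.90 (SE 0.14, edgeR adjusted p 1.58e-07). ZNF302 rose by 0.30 and ZNF30 by 0.53 on the log2 scale. The cluster is described here because of these calls, after its values were seen, and it was not tested against other clusters. In cluster 16, which has 48 tested genes, 9 were higher and 9 lower at 24 h, and in cluster 5 the counts were 1 and 4 of 10. The share called lower at 24 h over all genes tested was 29.7%.

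**Figure D4:**
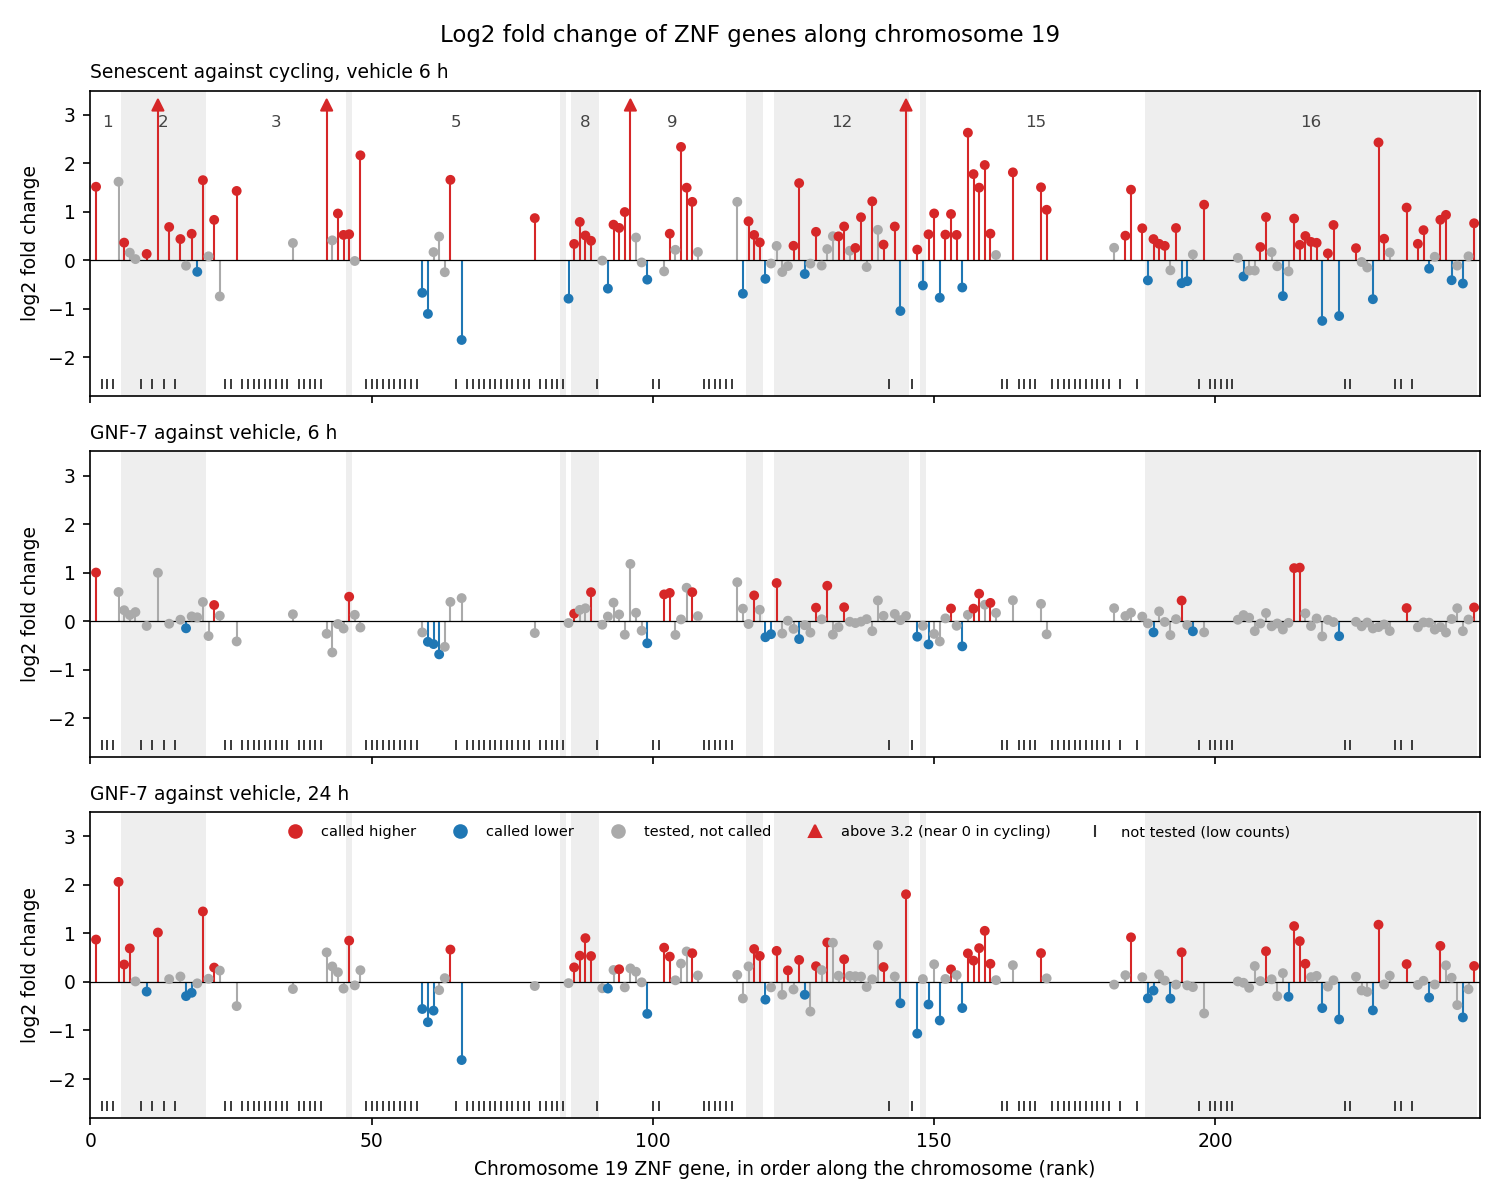
All 246 genes are drawn in order along chromosome 19 (horizontal axis, rank), with the log2 fold change on the vertical axis for senescent against cycling cells, GNF-7 against vehicle at 6 h and GNF-7 against vehicle at 24 h. Red and blue points are called higher and lower, grey points tested and not called, ticks at the bottom genes not tested, triangles genes above the axis that had at most 1 count in the cycling libraries together, shading marks alternate clusters and numbers name clusters of at least 5 genes. Red points fill cluster 15 in the top panel (16 of 20 tested), and long rows of ticks stand in clusters 3, 5 and 15.

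Genes called in senescence and in the 24 h GNF-7 response, comparisons that share no library, were set side by side. Of the 83 genes higher in senescent cells, 37 (44.6%) were also higher with GNF-7 at 24 h and 5 were lower, and of the 44 higher with GNF-7, 84.1% were higher in senescent cells. Over all genes tested, 44.0% of those higher in senescent cells were higher with GNF-7, and 53.6% the other way round. The 84.1% and 53.6% start from different bases, since 53.9% of the 154 genes were higher in senescent cells, against 35.6% over all genes. Of the 25 lower in senescent cells, 16 (64.0%) were lower with GNF-7 and 1, ZNF581, was higher, against 51.9% over all genes. The 5 genes that rose in senescence and fell with GNF-7 were ZNF317, ZNF561, ZNF114, ZNF175 and ZNF579. Across the 154 genes the log2 fold changes of both comparisons had a Pearson r of 0.566 and a Spearman rho of 0.632, and across all genes 0.405 and 0.396. Genes are not independent replicates, and duplicated neighbours less so. The 6 genes named here by their opposite calls were chosen after their values were seen.

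Between 6 h and 24 h of GNF-7, comparisons that also share no library, all 22 genes called higher at 6 h were called higher at 24 h, against 72.8% over all genes tested. Of the 14 lower at 6 h, 10 were lower at 24 h (71.4%, against 80.9% over all genes), 3 were not called and ZNF404 was higher. ZNF404 was at 6.95, 7.42 and 7.21 CPM in vehicle and 6.26, 4.97 and 5.47 CPM with GNF-7 at 6 h, and at 8.58, 8.29 and 6.58 CPM and 9.92, 12.7 and 9.596 CPM at 24 h. The difference between the effects of GNF-7 at 24 h and 6 h was tested in the same fit. It was called for 7 genes in the direction of a higher effect at 24 h and for 10 in that of a lower one, against 12.8% and 18.0% over all genes tested. For ZNF404 the difference was 0.82 (SE 0.18, edgeR adjusted p 2.89e-04).

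Time in vehicle alone, 24 h against 6 h in senescent cells, moved few of the genes. ZNF222, ZNF358 and ZNF580 were called higher and ZNF584 lower, against 9.26% higher and 9.29% lower over all genes tested. At an unadjusted p under 0.05 (edgeR) the number was 16 of the 154, against 5463 of all 18563 genes tested. ZNF580 was at 74.2, 73.4 and 74.02 CPM at 6 h and 81.96, 84.04 and 82.8 CPM at 24 h, a log2 difference of 0.17 (SE 0.046, edgeR adjusted p 0.00601). When libraries were scaled by total counts, which moved the median over all genes from 0.009 to -0.102 in log2, 0 of the 154 were higher and 21 lower, so the direction in this comparison depends on the scaling. Without 6 h vehicle replicate 3 or 24 h vehicle replicate 3, 1 gene was called higher. The call of ZNF222 was lost without 6 h vehicle replicate 1, 6 h vehicle replicate 3, 24 h vehicle replicate 1, 24 h vehicle replicate 2 or 24 h vehicle replicate 3 (edgeR adjusted p 0.0909 to 0.23), that of ZNF358 without 6 h vehicle replicate 3 or 24 h vehicle replicate 3 (edgeR adjusted p 0.0658 to 0.103) and that of ZNF584 without 6 h vehicle replicate 1, 6 h vehicle replicate 2 or 24 h vehicle replicate 3 (edgeR adjusted p 0.0574 to 0.278).

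The partners through which KRAB zinc finger proteins repress were taken from a list of 32 genes, all of which were tested. In senescent cells 28 of the 32 were lower and 2 higher, SETDB1 and DNMT3A, with a median log2 fold change of -0.57, opposite in sign to that of the chromosome 19 ZNF genes. These are 87.5% lower and 6.25% higher, against 34.4% and 35.6% over all genes tested and 43.8% and 33.9% over coding genes. TRIM28, the central corepressor, was at 878 ± 10.5 CPM in cycling and 433 ± 11.9 CPM in senescent cells, a log2 difference of -1.02 (SE 0.034, edgeR adjusted p 6.82e-36). SETDB1, its histone methyltransferase, was at 41.5 ± 1.27 and 48.8 ± 4.54 CPM, a log2 difference of 0.24 (SE 0.059, edgeR adjusted p 3.69e-04). CBX5, CBX1 and CBX3, the heterochromatin proteins, fell by 1.46, 1.25 and 1.20 on the log2 scale. DNMT1, the maintenance DNA methyltransferase, fell by 1.58, and UHRF1, which guides it to replicated DNA, by 2.74. MKI67, a marker of proliferation, fell from 509 ± 24.3 to 149 ± 3.35 CPM in the same libraries, and its part in these values was not tested. Members of the HUSH complex differed, with log2 fold changes of -0.55 for TASOR, -0.32 for PPHLN1 and 0.02 for MPHOSPH8, the last of which did not pass the test.

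With GNF-7, 21 of the 32 were lower and 1 higher at 6 h, and 22 lower and 4 higher at 24 h. Over all genes tested, 21.4% were lower and 17.9% higher at 6 h and 29.7% and 29.3% at 24 h, and over coding genes 28.3% and 38.2% were lower at 6 h and 24 h. TRIM28 was at 425 ± 2.24 CPM in vehicle and 314 ± 9.55 CPM with GNF-7 at 24 h, a log2 difference of -0.43 (SE 0.034, edgeR adjusted p 1.75e-17). UHRF1 fell by 2.23 and CBX5 by 0.90 on the log2 scale at 24 h. MKI67 was at 125 ± 4.72 and 39.1 ± 4.34 CPM in these libraries. The genes called higher at 24 h were DNMT3B, DNMT3A, MPHOSPH8 and MTA1, with log2 fold changes of 0.15 to 0.43. SETDB1 showed a log2 difference of -0.01 (SE 0.059, edgeR adjusted p 0.838) and did not pass the test.

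**Figure D5:**
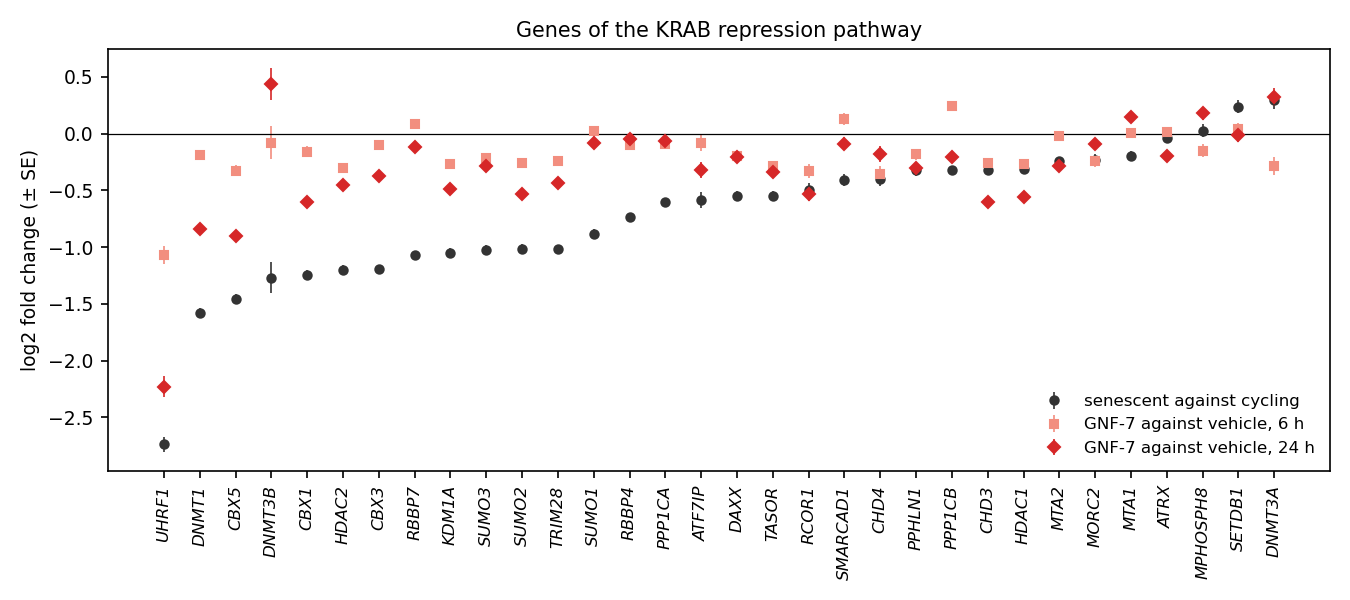
Points give the log2 fold change with its SE for each of 32 genes of the KRAB repression pathway, ordered by the senescence comparison, for senescent against cycling cells (dark circles) and GNF-7 against vehicle at 6 h (light squares) and 24 h (red diamonds). Most senescence values lie below 0 (28 of 32 called lower), and UHRF1 is lowest in that comparison.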

How the data were processed

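The authors deposited raw counts of reads per Ensembl gene for 15 libraries, made with STAR 2.7.9a and featureCounts 1.5.1 on GRCh38 per the submitters' processing notes, from a stranded mRNA kit per the labels' protocols. The annotation release, the strand setting and the treatment of multi-mapping reads are not given in the sources used here, so overlapping genes and near copies are uncertain: 137 of the 246 genes have exons that overlap another gene. Of 60673 table lines, 3 that hold 1 broken entry were left out, and 58452 identifiers (96.34%) matched GENCODE 29.

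Counts were tested with edgeR 4.0.16 (R 4.3.3): filterByExpr, TMM scaling, 1 robust quasi-likelihood fit over all 15 libraries with a term per group, Benjamini-Hochberg adjustment over 18563 genes, calls at an adjusted p under 0.05. The SE is the absolute log2 fold change divided by the root of F. The code was tested on simulated data. Libraries of a group differed by more than sampling noise in each pair. Genes named were 15 with a known role, the 5 largest rises and falls per contrast among called genes with a mean of at least 1 CPM, the 5 of highest CPM and the listed pathway genes. Members and lists were chosen with earlier results of these data known. Alternatives were RLE and total-count scaling, other filters, DESeq2 1.42.0, limma 3.58.1 voom, a replicate block, fits restricted to the compared groups and leaving out each library; removal of GC and length trends was chosen after seeing the data. Promoter windows were compared by global alignment. One further gene of the pathway list is not reported here.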

Additional observations from a re-analysis of the deposited data

Results flagged for a closer look

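The response to GNF-7 was not the same at both times for 17 chromosome 19 ZNF genes, by a test of the difference itself (edgeR, adjusted p under 0.05); 12.8% of all genes tested had a higher and 18.0% a lower effect at 24 h. The effect at 24 h was lower than at 6 h by a log2 difference of -2.08 for ZNF100, -0.74 for ZNF114, -0.74 for ZNF132, -0.53 for ZNF324B, -0.46 for ZNF551, -0.46 for ZNF180, -0.44 for ZNF587B, -0.32 for ZNF561, -0.29 for ZNF544 and -0.23 for ZNF146. It was higher by 0.35 for ZNF333, 0.46 for ZNF432, 0.56 for ZNF358, 0.64 for ZNF599, 0.74 for ZNF761, 0.82 for ZNF404 and 1.30 for ZNF814. ZNF100 was at a low level, 0.538 ± 0.0577 CPM in vehicle and 0.749 ± 0.254 CPM with GNF-7 at 6 h, and 0.747 ± 0.128 and 0.242 ± 0.0373 CPM at 24 h (SD, n = 3). ZNF132 was close to the threshold, with an edgeR adjusted p of 0.0493, and lost its call with total counts, with voom, with the replicate block and in nearly all fits that left out 1 library. The call of ZNF324B was lost without 6 h vehicle replicate 1, 6 h GNF-7 replicate 2, 6 h GNF-7 replicate 3, 24 h vehicle replicate 1, 24 h vehicle replicate 2, 24 h GNF-7 replicate 2 or 24 h GNF-7 replicate 3 (edgeR adjusted p 0.0548 to 0.155), that of ZNF551 without 6 h vehicle replicate 3, 6 h GNF-7 replicate 1, 24 h vehicle replicate 2 or 24 h GNF-7 replicate 3 (edgeR adjusted p 0.0505 to 0.0776), that of ZNF599 without 6 h vehicle replicate 3 or 6 h GNF-7 replicate 1 (edgeR adjusted p 0.0606 to 0.076) and that of ZNF761 without 6 h GNF-7 replicate 1 (edgeR adjusted p 0.0606).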

How the results depend on the processing

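The counts of chromosome 19 ZNF genes called higher and lower in senescence, at 6 h and 24 h of GNF-7 and for the difference between times stayed within 1.5 times of the reported values under every alternative run that kept all libraries. In the vehicle comparison, total counts gave 0 higher and 21 lower, and leaving out mitochondrial genes or fitting only the groups compared gave 2 lower. With 1 library left out, which pools the spread of the other groups, senescence had 76 to 84 genes higher and 23 to 26 lower, GNF-7 at 6 h 18 to 23 and 9 to 15, GNF-7 at 24 h 35 to 43 and 21 to 25, the difference between times 5 to 8 and 7 to 10, and time in vehicle 1 to 3 and 0 to 2. The lowest count at 6 h, 9, was found without vehicle replicate 2. Total counts moved the median of all genes in senescence from 0.062 to 0.195 and the calls to 96 higher and 19 lower. Replicate numbers did not pair the libraries (30 same-number pairs, correlations of deviations -0.037 to 0.058; 8 of 15 libraries correlated best with their own number). The replicate block gave 85 higher and 26 lower in senescence, 22 and 14 at 6 h, 44 and 25 at 24 h, 8 and 9 for the difference between times and 3 and 1 for time in vehicle.

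Of 1494 values of single genes under alternatives, 1389 kept their direction and call, 80 lost the call, 13 gained it and 12 changed sign. The sign changes were in values that did not pass the test. With 1 library left out, values at 24 h ranged from -0.258 to 0.197 for ZNF91, -0.043 to 0.15 for ZNF473, -0.034 to 0.288 for ZNF331, -0.099 to 0.118 for ZNF420 and -0.236 to 0.706 for ZNF382, and at 6 h from -0.162 to 0.003 for ZNF587 and -0.097 to 0.029 for ZNF274. ZNF274 at 6 h was 0.001 with a filter at a mean of 1 CPM, ZNF587 at 24 h 0.002 with GC and length trends removed, and ZNF121 in senescence was 0.023 with total counts and 0.038 with trends removed. The median over the genes ranged from -0.001 to 0.031 at 6 h and from -0.022 to 0.004 for time in vehicle with 1 library left out, and the latter was 0.009 with trends removed. The cause was not tested. A median level of 7.67 CPM limits what can be detected.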
